A study of Mus musculus with 15 samples.

Results

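Gene expression in the mouse adrenal gland 7 days after the end of dexamethasone was compared with that 3 days after it. The comparison used 8 of the series' 15 arrays, 4 titled as day 7 and 4 titled as day 3, chosen by their titles alone, and each array measured 21439 genes. All were from male wild-type C57BL/6J mice with a labelled age of 6 weeks, which had drunk water with dexamethasone, a synthetic glucocorticoid, for 14 days. The other 7 arrays served as reference levels: 4 from mice before any dexamethasone (control) and 3 from mice on the day the treatment ended (withdrawal). Every array is titled a biological replicate, but the labels do not say how many glands or animals each one holds. The p-values therefore measure the spread between arrays. Whole glands were used, so that fewer cells of a type and less RNA per cell cannot be told apart in any value below.

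The adrenal cortex makes glucocorticoids in its zona fasciculata under the pituitary hormone ACTH and aldosterone in its outer zona glomerulosa, while the medulla at its centre makes adrenaline. Dexamethasone suppresses ACTH, and the zona fasciculata then shrinks. Once the drug is stopped ACTH returns and the cortex is rebuilt by cell division, growth and uptake and synthesis of cholesterol, the raw material of all steroids. The defining genes of both compartments were bright on all 8 arrays: the log2 level of Cyp11a1, the enzyme that starts steroid synthesis, lay between 10.61 and 10.82, and that of Th, the first enzyme of catecholamine synthesis, between 9.20 and 10.25. The median of an array over all its probe sets was 1.55 to 1.64, so a level near or under that value is at the floor of the arrays.

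No single gene passed the test between the days. At an adjusted p of 0.05 (limma, Benjamini-Hochberg over all genes) 0 genes were higher and 0 lower at day 7, that is 0% of the 21439 in each direction, and the lowest adjusted p was 0.0764. Leaving out day 3 replicate 1 brought 7 genes past the threshold, all lower at day 7, and leaving out any other single array of the 2 days at most 1 in each direction. At an unadjusted p of 0.05 there were 1516 genes, 7.07% of all, with 3.67% higher and 3.41% lower. What follows therefore describes groups of genes by the counts and medians of their members and by their values in each array, with no member called. As a background for the counts, all 4 day 7 arrays lay below all 4 day 3 arrays for 374 genes (1.74%) and above them for 389 (1.81%). The mean was lower at day 7 for 47.9% of genes and higher for 52.1%, and the median difference over all genes was 0.01 log2 units. A difference is given below as day 7 minus day 3 on the log2 scale ± the standard error of the model, and a level as the log2 value of the array.

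Promoters from a pair of gene groups are shown first, because these are the group with the lowest median at day 7 and one of the groups with the highest. Many genes used in mitosis carry the sequence TTTGAA, the core of the cell cycle homology region at which repressor and activator complexes dock, close to a CCAAT box, the site of the factor NF-Y. 4 mitosis genes are shown as the 200 bases before the gene start, in RefSeq's GRCm38.p6, 5′ to 3′ on the strand of the gene, with every TTTGAA and CCAAT match on either strand in capitals. Cdk1 lies at chr10:69352913-69353112 on the minus strand, Top2a at chr11:99024190-99024389 on the minus strand, Mki67 at chr7:135716380-135716579 on the minus strand and Cdc20 at chr4:118437344-118437543 on the minus strand.
Cdk1: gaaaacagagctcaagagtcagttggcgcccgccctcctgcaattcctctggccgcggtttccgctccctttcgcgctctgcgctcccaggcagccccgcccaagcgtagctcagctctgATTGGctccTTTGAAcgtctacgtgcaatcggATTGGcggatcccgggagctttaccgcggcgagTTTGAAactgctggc
Top2a: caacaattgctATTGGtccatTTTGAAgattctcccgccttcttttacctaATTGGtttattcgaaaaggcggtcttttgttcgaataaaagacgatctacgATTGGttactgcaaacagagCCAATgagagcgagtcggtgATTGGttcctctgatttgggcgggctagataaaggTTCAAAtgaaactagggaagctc
Mki67: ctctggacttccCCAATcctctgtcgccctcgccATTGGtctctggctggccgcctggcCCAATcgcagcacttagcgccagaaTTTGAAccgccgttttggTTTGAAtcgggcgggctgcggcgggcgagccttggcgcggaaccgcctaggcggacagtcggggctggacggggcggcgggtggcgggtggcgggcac
Cdc20: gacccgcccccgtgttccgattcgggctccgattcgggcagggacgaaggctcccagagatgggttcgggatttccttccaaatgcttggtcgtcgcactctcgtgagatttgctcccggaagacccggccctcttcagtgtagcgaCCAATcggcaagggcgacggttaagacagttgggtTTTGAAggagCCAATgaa
The 4 genes were picked from members with all day 7 arrays below all day 3 arrays and with both motifs in their windows. That each window holds both is therefore a result of the choice. For Cdc20 the groups were barely apart, with a lowest day 3 array of 4.770 and a highest day 7 array of 4.767. Its difference was -0.47 ± 0.16 (adjusted p = 0.515). In Cdc20 the TTTGAA at bases -18 to -13 stands 4 bases from a CCAAT box at -8 to -4.

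Interferon-stimulated genes often carry repeats of GAAA, the element bound by a complex that holds Stat2 and Irf9. The windows of Isg15 at chr4:156200819-156201018 on the minus strand and Gbp3 at chr3:142559844-142560043 on the plus strand are shown in the same way, with pairs of GAAA separated by any 2 bases in capitals, on either strand.
Isg15: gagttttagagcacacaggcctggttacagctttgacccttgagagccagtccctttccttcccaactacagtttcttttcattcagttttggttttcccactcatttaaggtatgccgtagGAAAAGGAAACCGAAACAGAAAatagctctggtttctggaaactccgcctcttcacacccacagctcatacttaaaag
Gbp3: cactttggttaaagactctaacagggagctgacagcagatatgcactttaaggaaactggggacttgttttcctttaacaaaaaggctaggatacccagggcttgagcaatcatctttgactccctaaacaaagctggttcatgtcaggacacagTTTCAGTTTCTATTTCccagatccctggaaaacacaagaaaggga
Both genes were likewise picked from members with all day 7 arrays above all day 3 arrays and with such a pair in their windows. Isg15 holds 3 overlapping matches between bases -78 and -57 and Gbp3 2 between -45 and -30, the latter on the opposite strand.

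Mitosis genes had the lowest median of the lists with more than 1 measured member. Of the 46 genes of this list, 45 were measured, and all 45 had a lower mean at day 7 than at day 3, with a median difference of -0.60. For 21 of them the groups did not overlap (46.7%, against 1.74% of all genes). An unadjusted p under 0.05 was reached by 33, where 3.41% of all genes were lower at that level. The differences ran from -1.31 to -0.14. Relative to the mean of the control arrays, the mean of the list over its members was 0.57 to 0.87 in the day 3 arrays, -0.27 to 0.21 in the day 7 arrays, -0.16 to 0.25 in the control arrays and -0.29 to -0.15 at withdrawal. The day 3 arrays thus stood above all others, and the day 7 arrays overlapped with the controls. In the comparison of day 3 with withdrawal, where 1.37% of all genes had risen past the adjusted threshold, 20 of the 45 had; that comparison shares the day 3 arrays with the one described here.

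**Figure D1:**
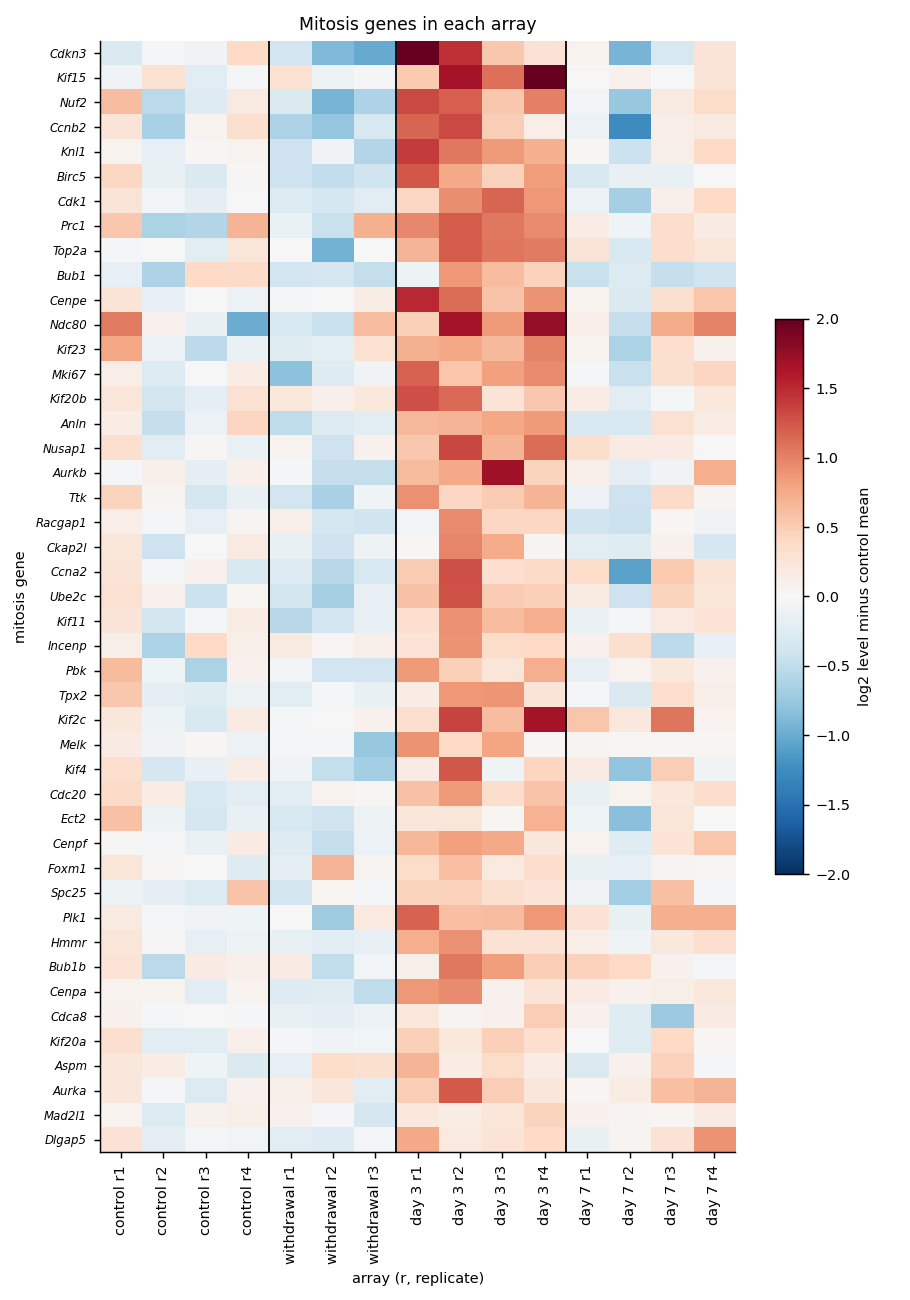
Levels of the 45 measured mitosis genes (rows, ordered by their difference between day 7 and day 3) in the 15 arrays (columns, in groups separated by lines), as colour for the log2 level minus the gene's control mean. The 4 day 3 columns are red for most genes, while the day 7 columns are mixed, with replicate 2 the palest or bluest for many.

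The kinase Cdk1, which drives entry into mitosis, was measured at 6.11, 6.63, 6.86 and 6.57 in the day 3 arrays and at 5.58, 5.03, 5.80 and 6.10 in the day 7 arrays. The highest day 7 array lay just under the lowest day 3 array. The difference was -0.91 ± 0.20 (adjusted p = 0.282), and the day 7 mean of 5.63 ± 0.45 (SD, n = 4) stood at the control mean of 5.70. Top2a, the topoisomerase that untangles replicated chromosomes, read 5.32, 5.85, 5.72 and 5.68 at day 3 and 4.90, 4.34, 4.99 and 4.88 at day 7. Its groups were apart as well, with a difference of -0.86 ± 0.20 (adjusted p = 0.310). Mki67, the gene of the proliferation marker Ki-67, read 5.85, 5.23, 5.49 and 5.62 at day 3 and 4.63, 4.23, 4.99 and 5.11 at day 7, again without overlap and by -0.81 ± 0.20 (adjusted p = 0.354).

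The other members described here were chosen after their values were seen. Birc5, the survivin subunit of the chromosomal passenger complex, had the lowest adjusted p of the list. It was 3.57, 3.07, 2.78 and 3.15 at day 3 and 2.00, 2.18, 2.18 and 2.32 at day 7, a difference of -0.97 ± 0.16 (adjusted p = 0.121). Knl1, a scaffold of the kinetochore, where chromosomes attach to the spindle, differed by -0.98 ± 0.18 (adjusted p = 0.167). Birc5 and Knl1 were dim at day 7, with means of 2.17 and 2.29, under the median level of 2.44 over all genes. Nuf2, of the kinetochore's microtubule-binding complex, differed by -1.08 ± 0.27 (adjusted p = 0.354). The motor protein gene Kif15 stood at 1.93, 3.06, 2.50 and 3.56 at day 3 and between 1.41 and 1.66 at day 7, which is the floor of the arrays. Its control mean of 1.40 and its withdrawal mean of 1.45 were at the floor too. The difference was -1.27 ± 0.25 (adjusted p = 0.208). Without day 3 replicate 1, the lowest day 3 array for this gene, it was -1.55 (adjusted p = 0.0253). That array was the day 3 array nearest to day 7. Leaving it out widens the difference by choice, so the smaller p is no support. Cdkn3, a phosphatase that acts on cyclin-dependent kinases, had the lowest difference, -1.31 ± 0.34 (adjusted p = 0.363), but its day 3 arrays spread from 3.73 to 5.46. Ccnb2, a B-type cyclin, differed by -1.05 ± 0.32 (adjusted p = 0.477) with groups that overlapped. The smallest differences of the list were those of Dlgap5 and Mad2l1, a spindle protein and a spindle checkpoint protein, at -0.14 and -0.17.

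Promoter windows from 250 bases before to 50 bases after the start were at hand for 37 of the 45 mitosis genes, in 39 windows. TTTGAA stood in 32 of these windows (82.1%), against 17.9% of the 32851 windows of all genes. A CCAAT box stood in 28 (71.8%, against 37.4%), and both in 26 (66.7%, against 6.95%). In the 34 windows of the DNA replication list the shares were 14.7% for TTTGAA and 61.8% for CCAAT, and in the 17 windows of the sterol synthesis list 5.88% and 82.4%. A CCAAT box was thus more frequent than in all windows in each of these 3 lists, and TTTGAA in the mitosis list alone of the 3. These are counts of letters and do not show that a site is used.

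DNA replication genes, which act before mitosis in the cell cycle, had a lower mean at day 7 for 30 of the 33 measured members (of 37 listed), with a median of -0.27. The groups did not overlap for 4 of them: Cdc6, which loads the replicative helicase, Tyms, which makes thymidylate, Gins2, a helicase subunit, and Pcna, the sliding clamp of DNA polymerase (12.1%, against 1.74% of all genes). That count was 10 without day 3 replicate 1, 8 without day 7 replicate 3 and 7 without day 7 replicate 4, while leaving out 1 array took that over all genes from 374 to between 567 and 791. Of the 4, Cdc6 was at the floor of the arrays at day 7, between 1.23 and 1.75, and had a control mean of 1.59. Tyms read 4.59, 4.61, 4.27 and 4.62 at day 3 and 3.94, 3.65, 4.12 and 3.77 at day 7. The groups were near each other at their edges and differed by -0.65 ± 0.14 (adjusted p = 0.247). Pcna was 8.23 to 8.36 at day 3 and 7.80 to 8.11 at day 7, by -0.35 ± 0.12 (adjusted p = 0.515). The helicase subunit Mcm5 read 3.17, 4.27, 4.50 and 4.31 at day 3 and 3.40, 3.18, 3.88 and 3.65 at day 7. Day 3 replicate 1 was the lowest of all 8, and the difference was -0.54 ± 0.27 (adjusted p = 0.723). Mcm2, a subunit of the same helicase ring, differed by 0.02 ± 0.12, and the difference between both members was not tested. Larger differences with overlapping groups were those of Uhrf1, which helps copy DNA methylation, at -0.81 ± 0.30, of Dtl, a ubiquitin ligase adaptor of the replication fork, at -0.72 ± 0.19, and of Rrm2, a subunit of ribonucleotide reductase, at -0.67 ± 0.22.

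Replication-dependent histones, made in the phase of DNA synthesis, had a median of -0.21 over 14 measured of 43 listed genes. It was -0.10 without day 3 replicate 2 and -0.51 with genes under the median level left out. For 3 of them, H2ac10, H1f5 and H2ac20, the groups did not overlap (21.4%, against 1.74% of all genes), and 11 had a lower mean at day 7. H1f5, a linker histone, read 6.55, 7.10, 7.20 and 7.15 at day 3 and 5.29, 5.79, 6.16 and 6.14 at day 7. Every day 7 array was under every day 3 array, by -1.15 ± 0.26 on average (adjusted p = 0.300). Core histone genes have near-identical copies, so a probe set may read several of them and the values of single copies are uncertain. Over all genes the lowest adjusted p-values belonged to the pseudogene Cyp4b1-ps2 (difference -1.38 ± 0.20), to Fam111a, a protease linked to replication forks, and to Scrg1, a small secreted protein. Fam111a was 4.91, 5.35, 5.08 and 5.18 at day 3 and 3.74, 4.00, 4.58 and 4.12 at day 7, with a difference of -1.02 ± 0.15 (adjusted p = 0.0764). Scrg1 was 3.82, 4.13, 3.47 and 4.48 at day 3 and 2.18, 2.46, 2.70 and 2.88 at day 7, by -1.42 ± 0.22 (adjusted p = 0.0766). Neither had overlapping groups, and both passed the threshold when genes under the median level were left out, at adjusted p-values of 0.0454 and 0.0484.

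Some further genes with low adjusted p stood outside the lists and are named after their values were seen. Spc24, a kinetochore subunit, differed by -0.77 ± 0.15, Arhgap11a, a regulator of cytokinesis, by -0.94 ± 0.18, and Hmgb2, a chromatin protein, by -0.92 ± 0.18, each with an adjusted p of 0.188. Lmnb1, a lamin of the nuclear envelope, read 5.32, 5.65, 5.68 and 5.66 at day 3 and 5.02, 5.14, 5.16 and 5.15 at day 7. Its difference was -0.45 ± 0.11 (adjusted p = 0.354), and its day 7 mean of 5.12 was 0.44 above control (adjusted p = 0.545). Id1, an inhibitor of differentiation factors, was 6.38, 7.12, 7.00 and 7.00 at day 3 and 6.22, 5.90, 5.89 and 6.26 at day 7. The edges of the groups were close but apart, and the difference was -0.81 ± 0.15 (adjusted p = 0.188). The adjusted p was 0.0253 without day 3 replicate 1. That was the day 3 array nearest to day 7, so the smaller p is no support.

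Sterol synthesis genes formed the second list with a low median at day 7. All 17 measured members (of 21 listed) had a lower mean than at day 3, with a median of -0.50 and a range from -1.07 to -0.01. An unadjusted p under 0.05 was reached by 13, where 3.41% of all genes were lower at that level. The mean of the list relative to control was 0.29 to 0.78 in the day 3 arrays and -0.21 to 0.23 in the day 7 arrays, and it had been -0.69 to -0.54 at withdrawal. The day 7 arrays lay mostly within the range of the controls, which was -0.27 to 0.15, and all of them over withdrawal. At day 3 against withdrawal 12 of the 17 had risen past the threshold (1.37% of all genes) and at day 7 against withdrawal 5 (0.98% of all genes). The groups of day 7 and day 3 did not overlap for Tm7sf2, Hsd17b7, Nsdhl, Mvk and Fdps, 5 of the 17 (29.4%, against 1.74% of all genes). This count was 8 without day 3 replicate 4 and 10 without day 7 replicate 4, beside the 567 to 791 over all genes.

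In the order of the pathway, Hmgcs1, which makes HMG-CoA near the start, was 8.19, 8.27, 7.49 and 7.15 at day 3 and 6.84, 6.99, 7.22 and 7.36 at day 7. Day 3 replicates 1 and 2 were well above the rest, day 3 replicate 4 was within the day 7 range, and the difference was -0.67 ± 0.21 (adjusted p = 0.479). Mvk, mevalonate kinase, differed by -0.51 ± 0.13 (adjusted p = 0.363), and Fdps, which makes farnesyl diphosphate, by -0.44 ± 0.19 (adjusted p = 0.683). Sqle, the squalene epoxidase, read 7.69, 7.56, 6.71 and 6.77 at day 3 and 5.77, 5.71, 6.75 and 6.90 at day 7. Again replicates 1 and 2 of each day were the most apart and the replicates 3 and 4 overlapped, with a difference of -0.90 ± 0.32 (adjusted p = 0.537). Cyp51, the lanosterol demethylase, showed the same order, at 6.98, 7.17, 5.81 and 6.15 against 5.03, 4.77, 5.66 and 6.34, and differed by -1.07 ± 0.32 (adjusted p = 0.451).

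Tm7sf2, a sterol reductase, was 6.30, 6.61, 5.97 and 6.06 at day 3 and 5.22, 5.19, 5.58 and 5.28 at day 7. There was no overlap, and the difference was -0.92 ± 0.23 (adjusted p = 0.361). Its mean of 5.32 ± 0.18 (SD, n = 4) at day 7 was close to the control mean of 5.15 and above the withdrawal mean of 3.93. Msmo1, a sterol methyl oxidase, had the lowest adjusted p of the list, with -0.61 ± 0.14 (adjusted p = 0.310). Hsd17b7 and Nsdhl, which act in removing methyl groups from the sterol ring, differed by -0.82 ± 0.21 and -0.63 ± 0.17. Dhcr7, the enzyme of a last step to cholesterol, was 8.36 on average at both times (difference -0.01 ± 0.15, adjusted p = 0.999), after 6.54 at withdrawal and 8.58 in control glands.

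Around this pathway the sensing and transport genes did not share a direction: 10 of 16 measured had a lower and 6 a higher mean at day 7, with a median of -0.03. Srebf2, the transcription factor that turns sterol synthesis on, was 6.52, 7.15, 6.88 and 6.58 at day 3 and 5.48, 6.19, 6.45 and 6.38 at day 7. The groups almost met but did not overlap, with a difference of -0.66 ± 0.23 (adjusted p = 0.530). Insig1, which holds that factor back and is itself induced by it, differed by -0.44 ± 0.18 (adjusted p = 0.618), and Stard4, a sterol carrier, by -0.35 ± 0.15. In the other direction stood Abca1, the pump that exports cholesterol when cells are replete. It was 5.84, 6.08, 6.17 and 6.01 at day 3 and 7.00, 7.27, 7.00 and 6.17 at day 7, so that day 7 replicate 4 was level with the highest day 3 array and the others stood well above. The difference was 0.84 ± 0.19 (adjusted p = 0.300). The adjusted p was 0.0318 without day 7 replicate 4. That was the day 7 array nearest to day 3, so the smaller p is no support. Abca1 had been 1.59 lower at day 3 than in control glands (adjusted p = 0.00337), and its day 7 mean of 6.86 lay between the day 3 mean of 6.03 and the control mean of 7.62. Abcg1, a second sterol exporter, went the other way, with -0.57 ± 0.25 (adjusted p = 0.680). Scarb1, the receptor through which the mouse adrenal takes up cholesteryl esters from HDL, was 10.02 to 10.16 at day 3 and 9.86 to 10.38 at day 7 (difference -0.03 ± 0.16, adjusted p = 0.980). Fatty acid synthesis genes had a median of -0.19, with a lower mean for 8 of 12.

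**Figure D2:**
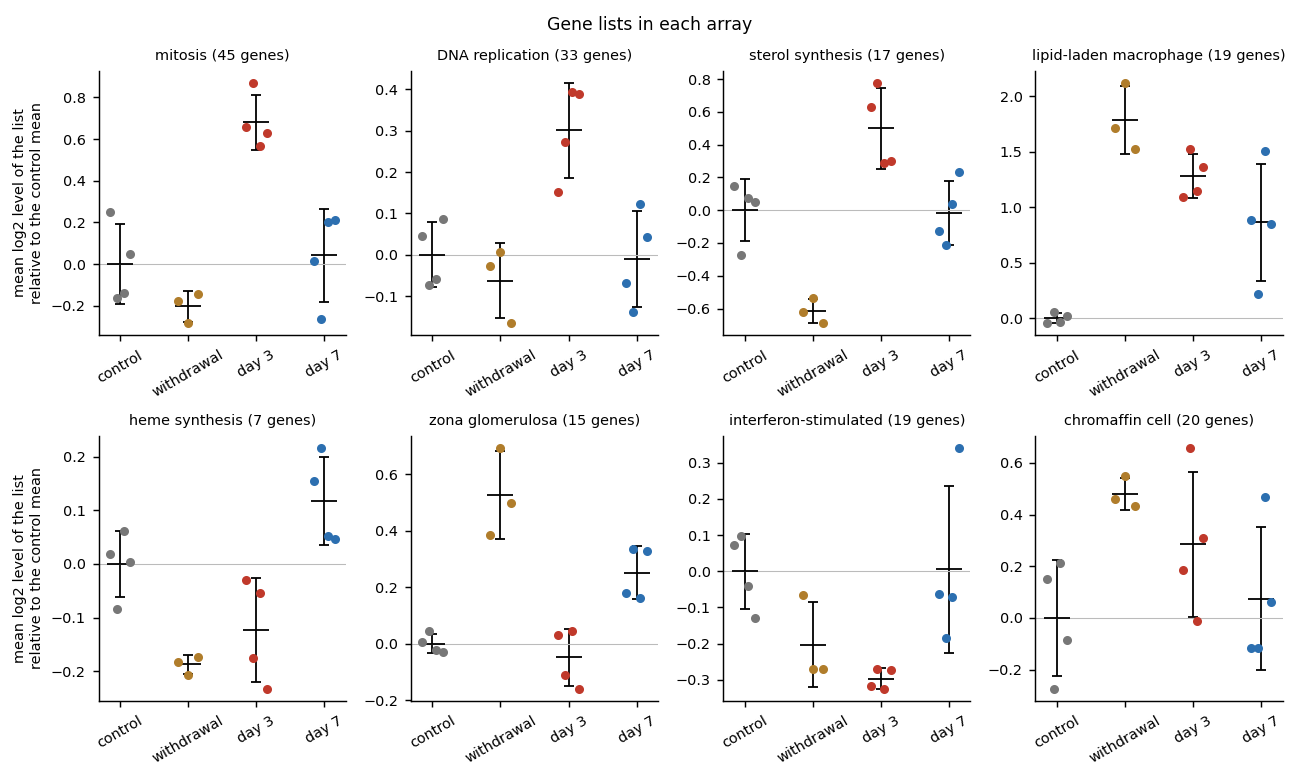
Mean log2 level of 8 gene lists in each of the 15 arrays, relative to the mean of the control arrays. Points are arrays, the horizontal mark is the group mean and the bar the SD. The mitosis and sterol synthesis lists are highest at day 3 and near control at day 7, the heme synthesis list is lowest at withdrawal and day 3, and the day 7 points of the lipid-laden macrophage list spread from 0.22 to 1.5.

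Genes of lipid-laden macrophages, which take up and digest lipid and dead cells, were still above control at day 7 but less so on average than at day 3. Of the 19 measured (20 listed), 18 had a lower mean at day 7, with a median of -0.29. The mean of the list was 1.53 to 2.12 above control at withdrawal, 1.09 to 1.52 at day 3 and 0.22 to 1.5 at day 7. Day 7 replicate 3 was thus as high as the top day 3 array. Without it the median was -0.49, and without day 7 replicate 2, the lowest, it was -0.23. Gpnmb, a membrane glycoprotein of such macrophages, read 7.65, 9.20, 7.76 and 8.50 at day 3 and 7.19, 3.78, 8.98 and 7.45 at day 7. Replicate 2 of day 7 was far under the others, and the difference was -1.43 ± 0.76 (adjusted p = 0.752). Without that array it was -0.41. Its control mean was 1.57, at the floor, and the difference of day 7 from control of 5.28 passed the threshold (adjusted p = 0.0362).

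Mmp12, the macrophage elastase, was 6.58, 7.43, 6.51 and 6.94 at day 3 and 6.27, 4.93, 7.15 and 5.97 at day 7, overlapping, with a difference of -0.79 ± 0.36 (adjusted p = 0.696). At day 7 it was 2.56 above control (adjusted p = 0.0362). These 2 genes and Tmem71 were the 3 genes higher at day 7 than in control glands, 0.014% of all. Trem2, the lipid-sensing receptor of these cells, read 4.25, 5.62, 4.65 and 4.64 at day 3 and 4.10, 3.19, 4.79 and 4.16 at day 7 (difference -0.73 ± 0.31, adjusted p = 0.662). Cd68, a lysosomal protein of macrophages, read 7.32, 8.36, 7.47 and 7.85 at day 3 and 7.31, 6.79, 8.21 and 7.18 at day 7 (difference -0.38 ± 0.28, adjusted p = 0.823). In all 4 genes day 7 replicate 2 was the lowest and day 7 replicate 3 the highest array of its group. Atp6v0d2, a proton pump subunit of osteoclasts and macrophages, had the lowest mean difference of the list, -1.58 ± 0.75 (adjusted p = 0.707), with day 7 arrays from 1.67 to 6.78. Without day 7 replicate 2 the differences were -0.62 for Atp6v0d2, -0.40 for Mmp12 and -0.18 for Cd68. Fabp5, a fatty acid carrier, differed by -0.60 ± 0.23 (adjusted p = 0.595). Apoc2 was the member with all day 7 arrays below all day 3 arrays, at 2.66 to 3.00 against 3.15 to 3.52. Its difference was -0.44 ± 0.18 (adjusted p = 0.613). Plin2, the coat protein of lipid droplets, was the member with the opposite sign: 7.08, 7.26, 7.46 and 7.36 at day 3 and 7.59, 7.56, 7.52 and 7.62 at day 7, without overlap, by 0.28 ± 0.12 (adjusted p = 0.659).

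General macrophage genes differed less, with a median of -0.09 over 22 members and a lower mean for 16. Adgre1, a surface receptor of mature macrophages, was 4.22 to 4.93 at day 3 and 4.63 to 4.83 at day 7 (difference 0.03 ± 0.14, adjusted p = 0.975). Lysosome and proton pump genes had a median of -0.09, with a lower mean for 22 of 26. Of the 9 genes of the resident macrophages that recycle iron, 5 had a lower mean at day 7, with differences down to -0.56. For Hmox1, which opens the heme ring, and Spic, the factor that specifies these cells, all day 7 arrays were above all day 3 arrays. They were 22.2% of the list, against 1.81% of all genes. Hmox1 read 7.53, 8.48, 8.13 and 8.20 at day 3 and 8.68, 9.27, 8.60 and 8.67 at day 7 (difference 0.72 ± 0.24, adjusted p = 0.515). Spic was 1.96, 2.38, 1.77 and 2.24 at day 3, little above the floor, and 2.50 to 2.98 at day 7. The difference was 0.63 ± 0.23 (adjusted p = 0.554). Its day 7 mean of 2.72 was close to the control mean of 2.54 and under the withdrawal mean of 3.88. The median over all 9 genes was -0.02.

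Neutrophil genes were high in 1 array. S100a8, a subunit of the antimicrobial protein calprotectin, read 2.95, 7.69, 2.89 and 3.50 at day 3 and 2.53, 2.17, 2.68 and 1.97 at day 7. Day 3 replicate 2 was far above the rest, and without it the difference of -1.92 ± 0.79 became -0.78. The mean of the 13 genes was 1.46 above control in that array and between -0.11 and 0.14 in the other 7. Without it the median of the list moved from -0.24 to 0.00, and without day 3 replicate 1 to -0.04. The same array was also the highest of day 3 for Gpnmb, Trem2, Mmp12 and Cd68, and without it their differences were -1.12 for Gpnmb, -0.46 for Trem2, -0.60 for Mmp12 and -0.17 for Cd68.

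Heme synthesis genes had a higher mean at day 7 for 6 of 7 measured members (of 8 listed), with a median of 0.34 that was 0.21 without day 7 replicate 1. Heme is the group that all cytochrome P450 enzymes of steroid synthesis need. The mean of the list relative to control was -0.23 to -0.03 at day 3 and 0.05 to 0.22 at day 7, so these arrays did not overlap. Alas1, the rate-limiting enzyme, was 9.12, 8.52, 8.95 and 8.86 at day 3 and 9.23, 9.37, 9.34 and 9.52 at day 7. All 4 day 7 arrays were higher, by 0.50 ± 0.11 on average (adjusted p = 0.300). At day 3 it had been 0.65 under control (adjusted p = 0.0434), and at day 7 it was 0.15 under control (adjusted p = 0.924). Fech, which inserts the iron at the last step, was 7.24, 7.07, 7.26 and 6.97 at day 3 and 7.64, 7.40, 7.56 and 7.50 at day 7, without overlap and by 0.39 ± 0.09 (adjusted p = 0.325). Alas1 and Fech were the members with groups apart (28.6%, against 1.81% of all genes). Of the middle steps, Uros differed by 0.41 ± 0.13 (adjusted p = 0.496) and Alad by 0.34 ± 0.22 (adjusted p = 0.791), both with overlap.

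Zona glomerulosa genes were on average higher at day 7 for 13 of 15 measured members, with a median of 0.24. Only Kcnk9 had groups that did not overlap (6.67% of the list, against 1.81% of all genes). The mean of the list was 0.39 to 0.69 above control at withdrawal, -0.16 to 0.05 at day 3 and 0.16 to 0.33 at day 7, so that the day 7 arrays lay above both day 3 and control and below withdrawal. Hsd3b6, the 3β-hydroxysteroid dehydrogenase of the mouse glomerulosa, read 6.87, 6.43, 5.83 and 5.55 at day 3 and 6.84, 7.09, 7.61 and 7.49 at day 7. The lowest day 7 array was level with the highest day 3 array, and the difference was 1.09 ± 0.30 (adjusted p = 0.395). Its mean had been 7.98 at withdrawal, 1.81 above day 3 (adjusted p = 0.00852), and 6.32 in control glands. Kcnk9, a potassium channel that sets the resting voltage of these cells, was 8.20, 7.83, 7.81 and 7.62 at day 3 and 8.24, 8.28, 8.23 and 8.52 at day 7 (difference 0.45 ± 0.14, adjusted p = 0.452). Vsnl1, a calcium sensor of this zone, differed by 0.50 ± 0.16 (adjusted p = 0.493), Lef1, a WNT transcription factor, by 0.52 ± 0.22, Agtr1b, an angiotensin II receptor, by 0.34 ± 0.17, and Nr4a2, which activates the aldosterone synthase gene, by 0.67 ± 0.45.

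Cyp11b2, the aldosterone synthase itself, was 8.89, 8.55, 8.65 and 8.54 at day 3 and 8.74, 8.95, 8.98 and 8.52 at day 7. The groups overlapped, with a difference of 0.14 ± 0.15 (adjusted p = 0.879). Among the signals of this zone and the capsule, Wnt4, a WNT ligand of the glomerulosa, was 6.82 to 7.19 at day 3 and 6.98 to 7.48 at day 7 (difference 0.21 ± 0.14, adjusted p = 0.804). Axin2, a target of WNT signalling, went the other way, at 5.41 to 6.07 and 5.24 to 5.71 (difference -0.28 ± 0.15, adjusted p = 0.752). Shh, the hedgehog ligand of glomerulosa progenitors, was 5.23, 5.26, 5.58 and 5.52 at day 3 and 5.58, 5.82, 5.55 and 5.73 at day 7 (difference 0.27 ± 0.13, adjusted p = 0.707). Its receptor Ptch1, which is also its target, was 6.11, 6.34, 7.13 and 6.56 at day 3 and 6.86, 7.15, 6.94 and 6.91 at day 7 (difference 0.43 ± 0.18, adjusted p = 0.661). Gli1, the factor that marks hedgehog-responsive capsule cells, was at the floor on all 8 arrays, between 0.91 and 1.37. The medians of the hedgehog and capsule list and of the WNT list were 0.13 over 18 genes and 0.09 over 26 genes, and without day 3 replicate 1 they were 0.02 and 0.04.

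**Figure D3:**
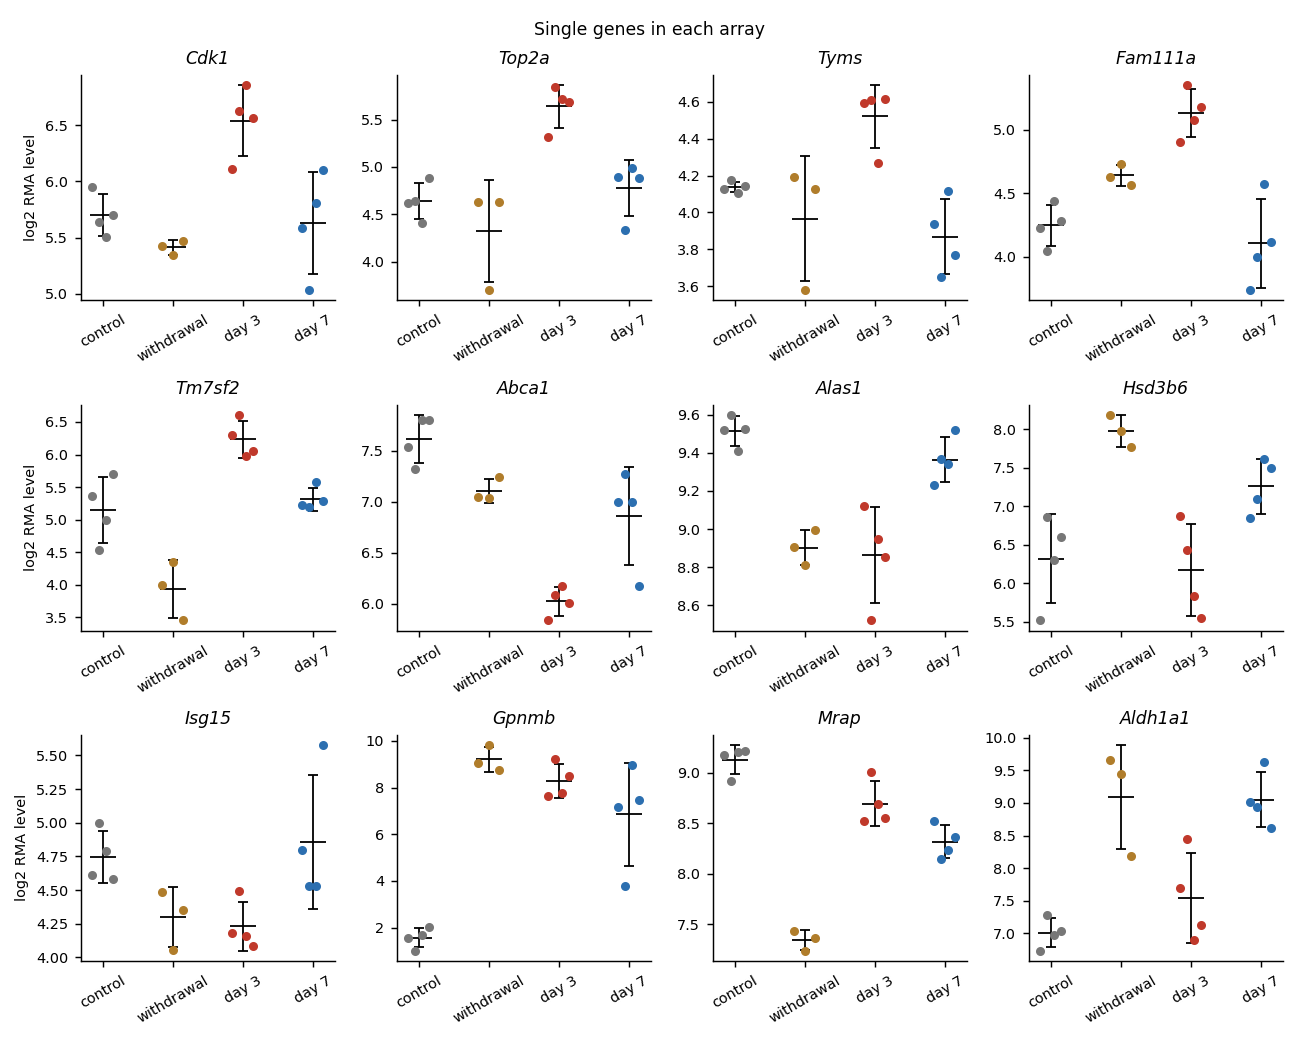
Log2 level of 12 genes in each array of the 4 groups. Points are arrays, the horizontal mark is the group mean and the bar the SD. Cdk1, Top2a, Tyms, Fam111a and Tm7sf2 have day 7 points wholly under the day 3 points, and Alas1, Isg15 and Aldh1a1 wholly over them. Mrap is also wholly under and Abca1 wholly over, but their nearest points are almost level. Gpnmb has 1 day 7 array at 3.78.

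Most steroid synthesis and zona fasciculata genes were close between the days, with a median of 0.03 over 13 steroid synthesis genes and -0.03 over 8 zona fasciculata genes. The mean of the steroid synthesis list relative to control was -0.10 to 0.15 at day 3 and 0.16 to 0.26 at day 7, apart by a narrow margin. Its members with the highest differences were Hsd3b6, at 1.09 as given above, and Nr4a1, at 0.96. In the comparisons with withdrawal, 5 and 6 of the 13 and 6 and 7 of the 8 had risen past the threshold at day 3 and day 7, where 1.37% and 0.98% of all genes had; the 2 comparisons share the withdrawal arrays. Cyp21a1, the 21-hydroxylase, was 9.39 to 9.51 at day 3 and 9.42 to 9.53 at day 7, and differed by 0.03 ± 0.09 (adjusted p = 0.964). Cyp11b1, which makes corticosterone in the fasciculata, was 9.70 to 9.93 and 9.69 to 9.80 (difference -0.10 ± 0.10, adjusted p = 0.865). Hsd3b1 was 9.20 to 9.55 and 9.16 to 9.54 (difference -0.03 ± 0.11, adjusted p = 0.977), and Cyp11a1 differed by 0.05 ± 0.07 (adjusted p = 0.921). Star, which carries cholesterol into the mitochondrion, was 10.81, 10.72, 10.84 and 10.83 at day 3 and 10.87, 10.86, 10.90 and 11.00 at day 7. Its groups did not overlap, but the difference was only 0.11 ± 0.07 (adjusted p = 0.800). The efflux pump gene Abcb1b, also of the fasciculata list, also had higher values in all day 7 arrays and differed by 0.21 ± 0.16 (adjusted p = 0.825).

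Mrap, the accessory protein that brings the ACTH receptor to the cell surface, was the member of these lists with all day 7 arrays below all day 3 arrays. It read 8.52, 9.01, 8.69 and 8.55 at day 3 and 8.52, 8.15, 8.23 and 8.37 at day 7, so the top day 7 array met the lowest day 3 array and the rest lay below. The difference was -0.37 ± 0.12 (adjusted p = 0.493). Against the control mean of 9.13 the day 3 mean was 0.44 lower (adjusted p = 0.181) and the day 7 mean 0.81 lower (adjusted p = 0.0362), which made Mrap the only gene lower at day 7 than in control glands in this model (0.00466% of all). Its withdrawal mean was 7.34. Mc2r, the ACTH receptor, was 9.40 to 9.78 at day 3 and 9.35 to 9.54 at day 7 (difference -0.11 ± 0.10, adjusted p = 0.843). The ACTH receptor and cAMP list as a whole had a median of 0.07 over 16 genes.

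Among the regulators, Nr5a1, the factor SF-1 that maintains steroidogenic cells, was 6.17 to 6.39 at day 3 and 6.25 to 6.63 at day 7 (difference 0.18 ± 0.10, adjusted p = 0.770). Nr0b1, the repressor DAX-1, was 5.56, 5.96, 6.14 and 6.22 at day 3 and 5.84, 5.87, 5.44 and 5.34 at day 7, with a difference of -0.35 ± 0.16 (adjusted p = 0.700). Nr4a1, an orphan receptor induced by ACTH within a short time, read 8.98, 6.44, 8.84 and 8.70 at day 3 and 9.13, 8.57, 9.56 and 9.56 at day 7. The low value of day 3 replicate 2 carried much of the difference of 0.96 ± 0.52 (adjusted p = 0.752), which was 0.37 without it. Immediate early genes as a list had a median of 0.22, with a higher mean for 19 of 24. The median was 0.09 without day 7 replicate 1, 0.12 without day 3 replicate 2, 0.34 without day 3 replicate 3 and 0.35 without day 3 replicate 4. Jun, a subunit of the factor AP-1, was 7.06 to 7.47 at day 3 and 7.58 to 7.66 at day 7, and Klf6, a zinc finger factor, 4.97 to 5.32 and 4.68 to 4.78, in the opposite direction (differences 0.42 ± 0.19 and -0.46 ± 0.12).

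Interferon-stimulated genes had a higher mean at day 7 for 17 of 19 measured members (of 24 listed), a median of 0.34, and groups that did not overlap for Isg15, Usp18, Irf9, Ddx58 and Gbp3 (26.3%, against 1.81% of all genes). Relative to control the mean of the list was -0.32 to -0.27 at day 3 and -0.18 to 0.34 at day 7, with day 7 replicate 4 highest. Without that array the median was 0.24. The number not overlapping was 5 again, but leaving out an array cannot lower such a number. Over all genes, leaving out 1 array took the count that was higher from 389 to between 658 and 926. Isg15, a ubiquitin-like modifier, read 4.18, 4.49, 4.16 and 4.09 at day 3 and 4.80, 4.53, 4.53 and 5.58 at day 7 (difference 0.63 ± 0.20, adjusted p = 0.487, and 0.39 without day 7 replicate 4). Usp18, the protease that removes this modifier, read 4.27, 4.50, 4.15 and 4.11 at day 3 and 4.50, 4.53, 4.88 and 5.37 at day 7 (difference 0.56 ± 0.16, adjusted p = 0.417). For both genes the nearest arrays of the 2 days were almost level. Irf9, the DNA-binding subunit of the complex that reads interferon signals, was 4.51, 4.38, 4.21 and 4.39 at day 3 and 4.88, 4.76, 4.85 and 5.22 at day 7, with the groups clearly apart (difference 0.56 ± 0.14, adjusted p = 0.355). Its partner Stat2 differed by 0.51 ± 0.22, with overlap. Control means were slightly above the day 7 means for Ddx58 and Gbp3, at 6.91 and 3.81 against 6.88 and 3.75. Of the members' promoter windows, 9 of 17 (52.9%, from 14 of the 19 genes) held this pair of GAAA, against 3.44% of all windows; this motif was chosen after the values were seen.

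Genes of MHC class II presentation had a higher mean at day 7 for 7 of 8, with a median of 0.21 that was 0.04 without day 7 replicate 1. H2-Eb1, a chain of the class II molecule, was 6.61, 6.28, 7.12 and 6.89 at day 3 and 7.58, 7.34, 6.81 and 6.94 at day 7 (difference 0.44 ± 0.22, adjusted p = 0.722). Replicates 1 and 2 of day 7 were above all others. The T cell list had a median of 0.05 over 11 genes and its highest day 7 array was the same replicate 1. The chemokine list had a median of 0.20 over 23 genes, which was -0.04 without day 3 replicate 1, 0.01 without day 3 replicate 2, 0.06 without day 7 replicate 1 and 0.03 with genes under the median level left out, so that single arrays decided its size and sign. Cxcl16 was lower in all day 7 arrays (-0.42 ± 0.16, adjusted p = 0.578). The B cell list had a median of -0.11, and the mast cell list one of -0.13 that was 0.01 without day 3 replicate 1 and -0.27 without day 7 replicate 3.

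Medullary chromaffin genes had a lower mean at day 7 for 17 of 20 measured members, with a median of -0.20, and none had groups apart (0%, against 1.74% of all genes). The median was -0.10 without day 3 replicate 2. The array means relative to control were -0.01 to 0.66 at day 3 and -0.12 to 0.47 at day 7. Pnmt, the enzyme that turns noradrenaline into adrenaline, was 9.17, 9.18, 8.44 and 8.63 at day 3 and 7.47, 7.26, 9.01 and 8.79 at day 7. Day 7 split into replicates 1 and 2, under all others, and replicates 3 and 4, within the day 3 range, with a difference of -0.73 ± 0.33 (adjusted p = 0.692). Th read 9.36, 10.25, 9.52 and 9.83 at day 3 and 9.33, 9.20, 10.03 and 9.79 at day 7 (difference -0.15 ± 0.25, adjusted p = 0.936). Ddc, which makes dopamine, differed by -0.41 ± 0.12 (adjusted p = 0.417), with day 7 replicate 3 inside the day 3 range. Schwann and glial genes, also of the medulla and nerves, had a lower mean for 8 of 9 and a median of -0.14, which was -0.27 without day 7 replicate 3 and -0.55 with genes under the median level left out. S100b, a glial calcium-binding protein, was 4.95, 5.09, 4.95 and 5.73 at day 3 and 4.56, 4.37, 4.77 and 4.35 at day 7, without overlap and by -0.67 ± 0.20 (adjusted p = 0.455).

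Endothelial genes had a median of -0.04 over 22 members, near that of all genes: Pecam1, an adhesion protein of endothelium, was 6.78 to 7.05 at day 3 and 6.81 to 6.93 at day 7 (difference -0.07 ± 0.08, adjusted p = 0.886), and Kdr, the VEGF receptor, 7.10 to 7.46 and 7.15 to 8.06 (difference 0.20 ± 0.15, adjusted p = 0.830). Within that list Apln, a peptide of sprouting tip cells, was 3.00, 3.44, 3.51 and 3.19 at day 3 and 3.88, 4.10, 5.04 and 4.21 at day 7. It was the list's highest difference, 1.02 ± 0.33 (adjusted p = 0.501), with no overlap, while the endothelial factor Erg was lower in all day 7 arrays by -0.47 ± 0.19. Col1a1, of type I collagen, was 4.33 to 4.49 at day 3 and 3.89 to 4.35 at day 7 (difference -0.27 ± 0.19, adjusted p = 0.821). The extracellular matrix and the smooth muscle and pericyte lists had medians of 0.02 and -0.06. Fibroblast genes had a lower mean at day 7 for 9 of 10, with a median of -0.19 that was -0.11 without day 7 replicate 1, and none had groups apart.

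Glucocorticoid receptor targets had a median of 0.06 over 21 genes. Fkbp5, a chaperone induced by the receptor, was 4.91 to 5.46 at day 3 and 4.82 to 5.55 at day 7 (difference 0.00 ± 0.16, adjusted p = 1.0), and Tsc22d3, which encodes the protein GILZ, was 3.90 to 4.12 and 3.92 to 4.37 (difference 0.01 ± 0.11, adjusted p = 0.992). Glul, glutamine synthetase, was the member with groups apart, 8.89 ± 0.08 at day 3 and 9.26 ± 0.11 at day 7 (SD, n = 4; difference 0.37 ± 0.10, adjusted p = 0.363). Clock genes had a median of 0.16 over 17, with the repressor genes Nr1d1 and Bhlhe41 at 0.54 ± 0.19 and 0.46 ± 0.13; the hours at which glands were taken are not stated in the sources used here. Other lists had medians between -0.07 and 0.08: p53 arrest and apoptosis -0.01, ribosome biogenesis -0.04, unfolded protein response 0.00, antioxidant enzymes 0.03, oxidative phosphorylation -0.05, the IGF axis -0.07, the X zone -0.06, kidney 0.07, pancreas 0.04 and the 1 measured red blood cell gene 0.08. Adipocyte genes had -0.29 and liver genes -0.09, both with wide spread between arrays. The liver gene Alb read 8.24, 1.78, 5.48 and 2.27 at day 3 and 5.98, 5.88, 2.80 and 5.94 at day 7, without order by group.

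**Figure D4:**
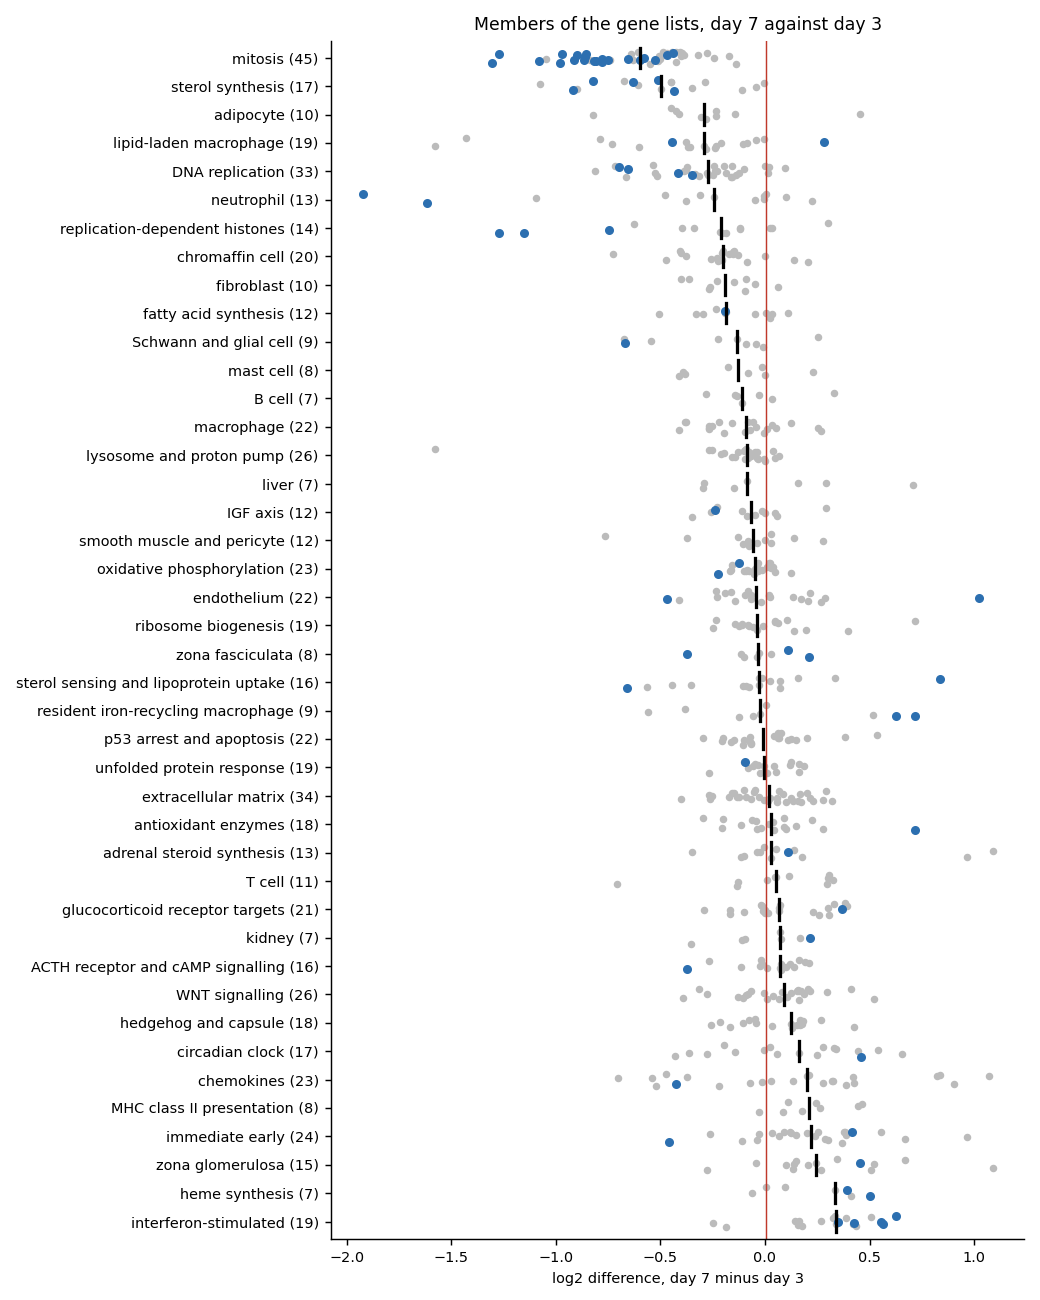
Log2 difference between day 7 and day 3 of every measured member of the lists with 7 or more measured genes, ordered by their median. Grey points are genes whose groups overlap and blue points genes whose groups do not, the black bar is the list's median and the red line the median of all genes. The mitosis and sterol synthesis lists lie wholly left of zero, and the heme and interferon-stimulated lists mostly right of it.

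Of single genes outside the lists with a higher mean at day 7, some with the lowest adjusted p were likewise picked by their values. Wdr81, an endosomal protein, was 3.45, 3.75, 4.11 and 3.69 at day 3 and 4.40, 4.51, 4.53 and 4.43 at day 7. The difference was 0.72 ± 0.13 (adjusted p = 0.167). The adjusted p was 0.0455 without day 3 replicate 3. That was the day 3 array nearest to day 7, so the smaller p is no support. Il34, a ligand of the receptor Csf1r on which macrophages depend, was 5.25, 5.91, 5.59 and 5.56 at day 3 and 6.16, 6.22, 6.17 and 6.12 at day 7. Its day 7 values were close together and at the control mean of 6.19, with a difference of 0.59 ± 0.12 (adjusted p = 0.223). Cited1, a transcriptional co-regulator, was 4.05 to 4.29 at day 3 and 4.81 to 5.80 at day 7, by 1.05 ± 0.23 (adjusted p = 0.297). Aldh1a1, a retinaldehyde dehydrogenase, was 7.70, 8.45, 6.89 and 7.12 at day 3 and 9.01, 8.93, 9.63 and 8.62 at day 7. Every day 7 array was higher, by 1.51 ± 0.34 or 2.85-fold on average (adjusted p = 0.300), and the day 7 mean of 9.05 was level with the withdrawal mean of 9.09, above the control mean of 7.01. On the same scale of folds, day 3 over day 7, the mean ratio was 1.88 for Cdk1, 1.89 for Tm7sf2 and 2.67 for Scrg1.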

How the data were processed

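Total RNA from whole adrenal glands was extracted on silica columns and labelled with biotin for 1-colour Affymetrix arrays, per the labels' protocols. The table holds log2 levels that the authors made with RMA (oligo), per the submitters' processing notes; versions, annotation and filters are not stated there, and depth has no meaning for arrays, whose number limits the precision. Levels near the array medians are at the floor, where differences come out smaller than they may be.

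Of 32736 probe sets, 22399 carried 1 gene symbol in the platform annotation and were used, 1607 carried several and 8730 none. Entrez identifiers matched RefSeq (GRCm38.p6) for 22261. For the 807 genes with several probe sets the one with the highest mean was kept, leaving 21439 genes. The mean correlation of an array with its group lay between 0.984 and 0.988, and 0 array pairs were identical.

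Differences were fitted with limma 3.58.1 in R 4.3.3 (lmFit and eBayes, 15 arrays, 4 groups, no covariate) and adjusted by Benjamini-Hochberg at 0.05; folds are 2 to the power of the difference. The fit was tested on simulated data with independent noise for each gene and array. Shifts shared by many genes of an array were not simulated, so the test does not cover them. The 45 gene lists are described by counts and medians, without a set test. The members and lists were chosen with earlier results of these data known. Genes were to be named by 3 rules: the 12 largest rises and 12 largest falls past the threshold, list members past it, and a panel of 38 genes. The first 2 gave none; 34 of the panel were measured, and the other 4 are not reported here. Every other gene was named after its values were seen. Promoters were read from RefSeq's GRCm38.p6 (250 bases before to 50 after the start). The alternatives tried were the 8 arrays alone, each array left out, the replicate number as a block, centring, quantile normalization, a filter on dim genes, trend and robust options, and another probe set per gene.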

Additional observations from a re-analysis of the deposited data

Results flagged for a closer look

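In groups of 4 arrays, 1 array stood apart from the other 3 by more than Dixon's critical share of the group's range in 24 of the 318 groups looked at (159 genes or list means at day 3 and at day 7). The critical share is set so that chance gives about 1 in 20. That rate cannot be applied here, because most of the genes were chosen by their values and the lists share members with them. No explanation was tested for any of them.

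Day 3 replicate 1 was low for Mcm5 (3.17, others 4.27 to 4.50), H1f5 (6.55, others 7.10 to 7.20), Id1 (6.38, others 7.00 to 7.12) and Lmnb1 (5.32, others 5.65 to 5.68), and for the mean of the IGF axis list (-0.128, others 0.013 to 0.035). Day 3 replicate 2 was high for S100a8 (7.69, others 2.90 to 3.50) and the mean of the neutrophil list (1.46, others -0.102 to 0.135), and low for Nr4a1 (6.45, others 8.70 to 8.98), Gli1 (0.912, others 1.20 to 1.21) and Tsc22d3 (3.90, others 4.10 to 4.12). Day 3 replicate 3 was low for Tyms (4.27, others 4.59 to 4.62) and high for Lef1 (5.39, others 4.72 to 4.82). Day 3 replicate 4 was high for Gins2 (6.44, others 6.01 to 6.06) and low for Rrm2 (3.97, others 4.89 to 4.92).

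At day 7, replicate 1 was high for the means of the MHC class II list (0.55, others 0.01 to 0.08) and the T cell list (0.613, others 0.22 to 0.247) and low for Lmnb1 (5.02, others 5.14 to 5.16). Replicate 2 was low for Top2a (4.34, others 4.88 to 4.99) and high for Hmox1 (9.27, others 8.60 to 8.68). Replicate 3 was high for Ddc (6.65, others 6.32 to 6.35) and low for Alb (2.80, others 5.88 to 5.98). Replicate 4 was high for Kcnk9 (8.52, others 8.23 to 8.28) and low for Erg (5.39, others 5.40) and for the mean of the adipocyte list (-0.73, others -0.284 to -0.252). For Erg the other arrays held the same value, 5.401, against 5.388. The flag there comes from the tie and not from a wide gap.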

How the results depend on the processing

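Under the 15 alternatives the count of genes past the adjusted threshold stayed at 0 in both directions in limma, with these exceptions. With genes under the median level left out, 3 genes were lower (Cyp4b1-ps2, Fam111a and Scrg1). Leaving out 1 array gave 0 to 7 genes lower, with 7 without day 3 replicate 1 and 1 each without day 3 replicate 2, day 3 replicate 3 and day 7 replicate 3, and 0 to 1 genes higher, with 1 without day 3 replicate 3 (Wdr81) and 1 without day 7 replicate 4 (Abca1). The count of genes with an unadjusted p under 0.05 was 1516 and ranged from 1005 to 1812. With the replicate number as a block 0 genes were higher and 0 lower (1408 at an unadjusted p under 0.05), and same-numbered arrays of the 2 days did not deviate together (correlations 0, -0.084, -0.138 and -0.085), so the numbers were not taken to pair the arrays. Leaving out 1 array, the median of the mitosis list ran from -0.70 to -0.49, of the sterol synthesis list from -0.58 to -0.42, of the DNA replication list from -0.37 to -0.26 and of the interferon-stimulated list from 0.24 to 0.40. Medians of other lists moved by more than 1.5 times: replication-dependent histones ran from -0.30 to -0.10, chromaffin from -0.29 to -0.10, Schwann and glial from -0.27 to -0.10, lipid-laden macrophage from -0.49 to -0.23, fibroblast from -0.24 to -0.11, fatty acid synthesis from -0.22 to -0.08, adipocyte from -0.48 to -0.15, heme synthesis from 0.21 to 0.37, immediate early from 0.09 to 0.35, MHC class II from 0.04 to 0.27, clock from 0.09 to 0.20, WNT from 0.04 to 0.13 and hedgehog and capsule from 0.02 to 0.16. Those of the chemokine (-0.04 to 0.29), mast cell (-0.27 to 0.01), T cell (-0.05 to 0.16) and liver (-0.39 to 0.71) lists changed sign. Small medians changed sign too, among them endothelium (-0.09 to 0.02), zona fasciculata (-0.09 to 0.03) and resident iron-recycling macrophage (-0.12 to 0.04). The others were sterol sensing, extracellular matrix, antioxidant, p53, smooth muscle and unfolded protein response genes. The neutrophil (-0.35 to -0.004), macrophage (-0.23 to -0.03) and B cell (-0.14 to -0.04) medians also moved by more than 1.5 times. So did some small ones. With genes under the median level left out, fewer members were measured, and the medians were -0.51 for histones, -0.55 for Schwann and glial, -0.38 for mast cell and 0.03 for chemokine genes. The number of members without overlap in these 4 leading lists, in the same order, ran from 21 to 28, 5 to 10, 4 to 10 and 5 to 7. The count over all genes went from 374 lower to between 567 and 791, and from 389 higher to between 658 and 926. Fewer arrays alone make overlap rarer, so leaving out an array can only keep or raise these counts. With each array centred on its median the count of lower genes was 247, and 16 for mitosis. Of 116 genes under these alternatives, 10 changed sign in some, all with adjusted p over 0.8. With centring Hsd3b1 was 0.0042 and Dhcr7 0.023. Leaving out 1 array, Hsd3b1 ran from -0.088 to 0.040, Scarb1 from -0.14 to 0.032, Adgre1 from -0.12 to 0.11, Fkbp5 from -0.14 to 0.11, Tsc22d3 from -0.087 to 0.062, Th from -0.30 to 0.021, Dhcr7 from -0.17 to 0.093, Mcm2 from -0.085 to 0.089, Dlgap5 from -0.35 to 0.0024 and Alb from -0.18 to 1.97. The cause of these shifts was not tested.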
